A study of Mus musculus with 6 samples.

Results

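Integrins, laminins and their basement membrane partners are described here in cultured mouse synovial fibroblasts exposed to compound 33 or to its vehicle. The set was defined by gene symbol, and it was chosen with earlier results of these data known. It holds every integrin alpha and beta subunit, every laminin chain and the nidogens Nid1 and Nid2. It also holds the proteoglycans Hspg2 (perlecan) and Agrn (agrin), and the dystroglycan gene Dag1. This definition gave 43 genes of the 21033 symbols in the count table, namely 27 integrin subunits, 11 laminin chains and 5 others.

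The cells were primary synovial fibroblasts grown for 3 passages from ankles of hTNFtg mice, a model in which a human TNF transgene causes arthritis. The treated group (hTNFtg, 3 libraries) received 10 µM compound 33 for 48 h, and the control group (hTNFtg, 3 libraries) received DMSO over the same time. Both groups carry the transgene, so no sample shows these genes without it, and no source used here names its promoter or the age of the mice. RNA was read near the 3′ ends of transcripts, so that a transcript gives reads in proportion to its number of copies rather than to its length, and a level here is in CPM, the reads of a gene per 1000000 reads of a library size scaled by the TMM method.

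Integrins are receptors made of an alpha and a beta subunit that span the plasma membrane, bind matrix proteins outside the cell and connect through talin and kindlin to actin inside it. Each pairing has its own ligands, and alpha v can pair with several beta subunits, beta 5 among them, to bind proteins such as vitronectin. Laminins are trimers of an alpha, a beta and a gamma chain that assemble into sheets, nidogen and perlecan tie those sheets to type IV collagen, and dystroglycan and some integrins anchor them to cells. Synovial lining cells have no continuous basement membrane, although they are surrounded by matrix that contains laminin and type IV collagen.

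Library depth ran from 1594052 to 2384850 reads with compound 33 and from 1913730 to 2897207 reads with DMSO, and 1 read was worth between 0.348 and 0.611 CPM. All 8 fibroblast markers looked up were tested, and their summed level ranged from 8616 to 10975 CPM with compound 33 and from 9769 to 11835 CPM with DMSO. Pdpn, Col1a1 and Vim held most of this sum. Groups did not overlap for Thy1, lower with compound 33 (mean 486 CPM, against 765 CPM with DMSO). They did not overlap for Pdgfrb either, higher with compound 33 (mean 274 CPM, against 178 CPM with DMSO). The other fibroblast markers overlapped. Of 9 markers of macrophages and other leukocytes 3 were tested, with sums of 58.9 to 124 CPM and 74.2 to 156 CPM in the same order, and the pan-leukocyte gene Ptprc had between 0 and 4 reads per library. Sums did not overlap for markers of endothelium (5.15 to 9.54 CPM with compound 33, 2.44 to 3.71 CPM with DMSO, with Pecam1 at 0 reads throughout) or of pericytes and smooth muscle (35.5 to 41.0 CPM and 22.1 to 31.0 CPM, of which Cspg4 held the largest part). Epithelial markers reached 2.06 CPM with compound 33 and 0.348 CPM with DMSO, and Krt5 and Krt14 had no read. Whether replicates came from separate cultures or animals is not stated, so a p-value covers only the spread among libraries, and that spread may be technical.

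The beta subunits show what the family shares and where its members differ. In 4 of the 5 beta subunits that could be tested, the part of the coding sequence for the cytoplasmic tail holds the 4 codons of the NPxY motif, which in integrins is the docking place of talin and of other adaptors. The stretches are shown because the results on the set turn most on a pair of these subunits, Itgb5 and Itgb1. Each is given 5′ to 3′ on the coding strand from the GENCODE M21 transcripts, with 9 bases on either side and the motif codons in capitals.
Itgb5: atggcctcaAACCCCCTGTACagaaagccc
Itgb1: acgggtgaaAATCCTATTTACaagagtgcc
Itgb3: acagcaaacAACCCGCTGTATaaagaggcc
Itgb7: caggacaacAATCCTCTCTACaaaagtgcg
Every stretch encodes the motif with different bases. The motif was searched in frame, on the coding strand only, in the last 150 coding bases of 1 transcript per gene. It was found in 0.377% of the 21501 coding genes searched, and these letters were not in that window of Itgb8. The window of Itgb1 held the motif 2 times, of which only the first is printed. Those of Itgb5, Itgb3 and Itgb7 held it 1 time each.

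Itgb5, the beta 5 subunit, had the smallest p-value of the set and was about 2-fold more abundant with compound 33, while Itgb1, the most abundant member, stood at similar levels in both groups. The transcripts of agrin and dystroglycan were also higher on average with compound 33, with wider spread. None of the 43 genes passed the test. Of the 25 members with enough reads to be tested, 0 passed edgeR's quasi-likelihood test at an adjusted p under 0.05, where 0.0296% of all 10124 tested genes passed. With limma-voom 0 of the 25 passed, against 0.0198% of all genes. DESeq2 gave an adjusted p to 23 members, Itga6 and Itgb7 being left out. Of these 0 passed, against 0.179% of the 10063 genes with such a value. At an unadjusted edgeR p under 0.05 lay 3 members (6.87% of all genes), of which 3 were higher with compound 33 (3.64% of all genes) and 0 lower (3.23% of all genes). With single libraries left out the higher count ran between 2 and 6, the 6 arising without DMSO replicate 1, where 4.45% of all genes lay higher, and the lower count was 1 without compound 33 replicate 3, where 2.72% of all genes lay lower. In these bulk samples fewer cells of a type and less RNA per cell cannot be told apart.

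A positive log2 fold change, meaning a higher level with compound 33, was found in 18 of the 25 tested members, against 48.9% of all tested genes. This count was 16 of 25 in limma-voom and 15 of 25 without DMSO replicate 3, against 49.9% and 48.8% of all genes. Leaving out any other single library gave 17 or 18. The median log2 fold change was 0.19 over the 25 members and -0.01 over all tested genes. All compound 33 libraries lay above all DMSO libraries in 4 members, Itgb5, Itgb7, Lamb1 and Lamb2 (6.64% of all genes), and below them in 0 (6.73% of all genes). Among the 25, 2 members reached the low-count filter in all 3 compound 33 libraries and in at most 1 DMSO library, Itgb7 being one, so these counts are a description and not support for a direction. Together the 43 genes took 0.256%, 0.243% and 0.230% of all reads with compound 33, against 0.173%, 0.238% and 0.194% with DMSO. The lowest compound 33 share was below the highest DMSO share, so the groups overlap.

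**Figure D1:**
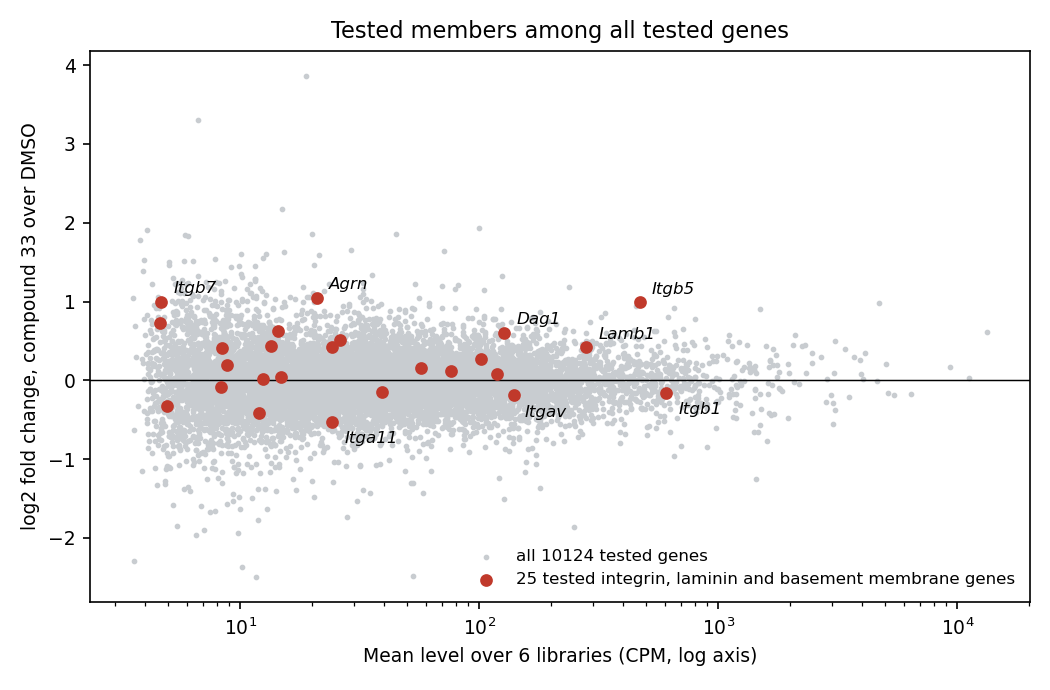
Log2 fold change (compound 33 over DMSO, vertical axis) against the mean level over 6 libraries in CPM (log axis) for all 10124 tested genes in grey and the 25 tested integrin, laminin and basement membrane genes in red. Itgb5 sits at 1.00 among genes of high level, where grey points stay closer to 0, and Itgb1, to its right, at -0.16.

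Beta subunits were dominated by Itgb1 and Itgb5. Itgb5 lies on chromosome 16 (mm10, 33829665 to 33949338, plus strand), and its exons overlap no other annotated gene. It stood at 622, 539 and 711 CPM in the compound 33 libraries, against 205, 378 and 356 CPM in the DMSO libraries. The groups did not overlap, and the lowest value belonged to DMSO replicate 1. Means were 624 ± 86.0 CPM with compound 33 and 313 ± 94.2 CPM with DMSO (SD, n = 3 per group). The log2 fold change was 1.00 (SE 0.25, 95% interval 0.45 to 1.54), with an unadjusted p of 0.00165 and an adjusted p of 0.401 in edgeR. Among all genes tested, 39 had a p no larger than this, Itgb5 included. Among the 351 tested genes at least as abundant as Itgb5, its log2 fold change was the largest positive value. In the authors' deposited table Itgb5 has a log2 fold change of 1.00 and an adjusted p of 0.0569. Adjusted p-values ranged from 0.0569 to 0.826 over the alternatives tried. The log2 fold change was 0.77 when DMSO replicate 1 was left out and 1.16 when DMSO replicate 2 was.

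Itgb1, the beta 1 subunit, is the partner of most alpha subunits that bind collagen, laminin or fibronectin. It stood at 585, 573 and 555 CPM with compound 33, against 502, 811 and 606 CPM with DMSO. The compound 33 libraries lay close together and inside the wider DMSO range. Means were 571 ± 14.9 CPM and 639.8 ± 157 CPM (SD, n = 3 per group), and the log2 fold change was -0.16 (95% interval -0.65 to 0.32, edgeR adjusted p = 0.936).

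Within a library, the share of a subunit among all integrin beta reads does not depend on how libraries are scaled. Itgb5 took 49.2%, 46.4% and 54.1% of integrin beta reads with compound 33, against 27.1%, 30.7% and 35.7% with DMSO. The exact 95% binomial intervals, which cover counting error only, ran over 47.0% to 51.4%, 44.5% to 48.2% and 52.2% to 56.1% with compound 33 and over 24.8% to 29.5%, 29.0% to 32.5% and 33.9% to 37.4% with DMSO. The lowest share with compound 33 was thus above the highest share with DMSO. These shares rest on the same Itgb5 reads as its level, so they restate that difference rather than add to it. Itgb1 took 46.3%, 49.3% and 42.3% with compound 33, against 66.5%, 66.0% and 60.7% with DMSO. The mean share of Itgb5 was 49.9% ± 3.92 with compound 33 and 31.2% ± 4.29 with DMSO (SD, n = 3 per group). Summed over all beta subunits, the level was 1264, 1162 and 1313 CPM with compound 33, against 755, 1228 and 998 CPM with DMSO, so that the sums of the groups overlapped where the share of Itgb5 did not.

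**Figure D2:**
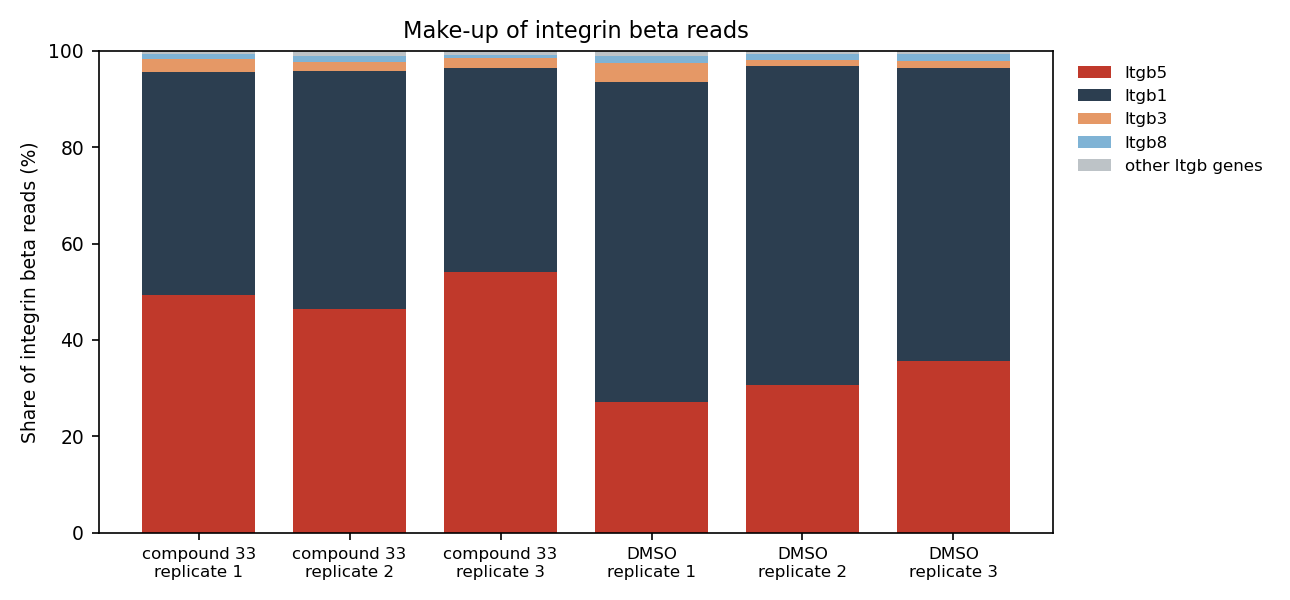
Share of each subunit among all integrin beta reads (percent, vertical axis) in the 3 compound 33 libraries on the left and the 3 DMSO libraries on the right. Itgb5 (red) takes 46.4% to 54.1% with compound 33 and 27.1% to 35.7% with DMSO, and nearly all of the remainder is Itgb1 (dark blue).

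The remaining beta subunits were scarce. Itgb3, which pairs with alpha v to bind vitronectin and other RGD proteins, stood at 34.2, 22.4 and 26.3 CPM with compound 33, against 29.2, 17.1 and 15.7 CPM with DMSO, a log2 fold change of 0.43 (SE 0.30). These groups overlapped. Itgb7, known as a leukocyte subunit, stood at 5.50, 5.39 and 7.72 CPM with compound 33, against 4.24, 3.16 and 2.09 CPM with DMSO, and the groups did not overlap. These values rest on 9, 13 and 15 reads with compound 33 and 8, 7 and 6 reads with DMSO, and its log2 fold change was 1.00 (SE 0.48, unadjusted p = 0.0527, edgeR adjusted p = 0.720). Itgb7 reached the low-count filter in the 3 compound 33 libraries and in 0 DMSO libraries, so its entry into the test leaned on the higher group. Itgb8, an activator of latent TGF-β with alpha v, stood between 9.27 and 14.7 CPM with compound 33 and between 10.6 and 13.2 CPM with DMSO. Itgb4, the hemidesmosome subunit, and Itgb6 were not tested and had totals of 31 and 2 reads over the 6 libraries.

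**Figure D3:**
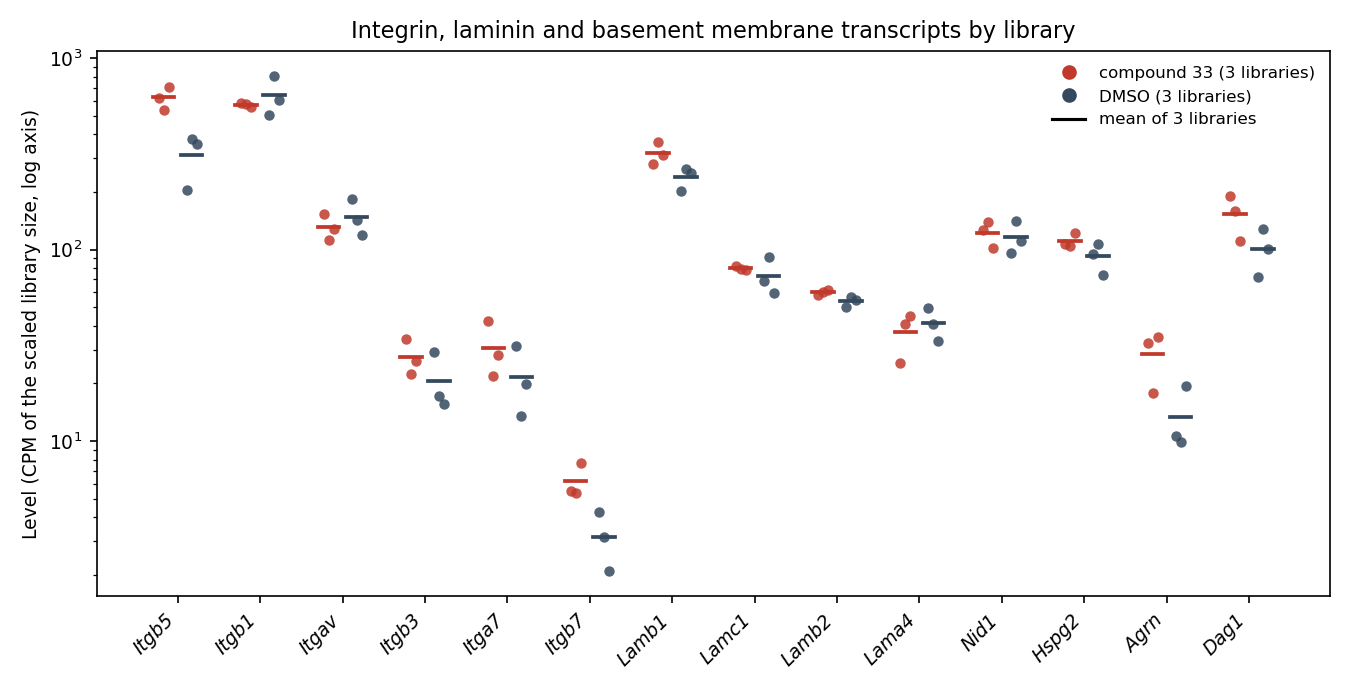
Level of 14 transcripts (CPM of the scaled library size, log axis) in each compound 33 library (red, left of each pair) and each DMSO library (dark blue, right), with the mean of 3 libraries as a bar. For Itgb5, Itgb7, Lamb1 and Lamb2 all red points lie above all blue points, and Itgb1, Itgav and Nid1 overlap.

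Alpha subunits gave a smaller and more even picture. Their summed level was 269, 213 and 232 CPM with compound 33, against 304, 238 and 226 CPM with DMSO, and the groups overlapped. Itgav, the alpha v subunit shared by beta 3, beta 5 and beta 8, made up most of it. It stood at 153, 112 and 128 CPM with compound 33, against 183, 142 and 119 CPM with DMSO, with overlapping groups and a log2 fold change of -0.18 (95% interval -0.67 to 0.31, edgeR adjusted p = 0.934). Itgav exons overlap those of the transcript Gm13684 on the opposite strand, and no source used here names the strand setting of the counting. Relative to its partner, Itgb5 made up 80.3%, 82.7% and 84.8% of the reads of Itgb5 and Itgav together with compound 33, against 52.7%, 72.7% and 74.9% with DMSO. These shares did not overlap, but they rest on the same Itgb5 reads as its level and are not separate support. DMSO replicate 1 stood apart from the other DMSO libraries.

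Alpha subunits that bind collagen, namely Itga1, Itga2, Itga10 and Itga11, pair with beta 1. Itga11, a fibroblast receptor for fibrillar collagen, stood at 12.8, 17.8 and 28.8 CPM with compound 33, against 24.9, 27.1 and 33.8 CPM with DMSO, and had the lowest log2 fold change of the set, -0.53 (SE 0.31, edgeR adjusted p = 0.805). The groups overlapped, and the log2 fold change was -0.88 without compound 33 replicate 3 and -0.31 without compound 33 replicate 1. Itga1 and Itga2 had log2 fold changes of 0.04 and -0.33, and Itga10 had too few reads to be tested. Exons of Itga1 and Itga10 overlap those of Gm49395 and Gm42957 on the same strand. The 3 alpha subunits that bind laminin, Itga3, Itga6 and Itga7, all had positive log2 fold changes, at 0.41, 0.72 and 0.51, with edgeR adjusted p-values from 0.834 to 0.928. With single libraries left out these ran from -0.02 (without DMSO replicate 3) to 0.78 for Itga3, from 0.35 to 1.23 for Itga6 and from 0.23 to 0.86 for Itga7. Itga7, known as the muscle receptor for laminin, was the most abundant of them at 42.2, 22.0 and 28.3 CPM with compound 33, against 31.3, 13.5 and 19.8 CPM with DMSO. Its groups overlapped, and its exons overlap those of Mettl7b on the opposite strand. Itga5, the fibronectin receptor subunit, stood at 7.34, 15.3 and 7.72 CPM with compound 33, against 18.6, 10.4 and 12.9 CPM with DMSO, a log2 fold change of -0.42 (SE 0.39) that was -0.87 without compound 33 replicate 2 and -0.17 without DMSO replicate 1.

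Integrins of blood cells were at or near 0. Itgal, Itgax, Itgad and Itgb2l had no read in any library, Itgae had 1 read in all, Itgam 17 and Itgb2 34. Summed with Itgb7, the 8 leukocyte subunits had 17, 26 and 20 reads with compound 33, against 17, 11 and 19 reads with DMSO. The platelet subunit Itga2b had 50 reads in all, and of the 3 platelet and megakaryocyte markers Pf4 had 18 and Gp9 and Gp1ba had none. Itga4, Itga8 and Itga9 were also below the filter, with totals of 19, 5 and 55 reads. A library with no read of a gene allows a level of up to 3 reads, or 1.04 to 1.83 CPM at these depths, so absence cannot be stated. Exons of Itgam and Itgad overlap those of Gm49368 and Gm17831 on the same strand. Exons of Itgad, Itga4 and Itga8 overlap annotated genes on the opposite strand. Whether reads of these genes were lost to such overlaps was not tested.

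Laminin transcripts came mainly from Lamb1, Lamc1, Lamb2 and Lama4, the beta 1, gamma 1, beta 2 and alpha 4 chains. Lamb1 lies on chromosome 12 (mm10, 31265234 to 31329644, plus strand). It stood at 280.0, 366 and 312 CPM with compound 33, against 202, 263 and 251 CPM with DMSO. All compound 33 libraries were above all DMSO libraries, by a log2 fold change of 0.42 (95% interval -0.02 to 0.87, unadjusted p = 0.0620, edgeR adjusted p = 0.738). Lamb2 stood at 58.1, 60.1 and 61.8 CPM with compound 33, against 50.4, 56.8 and 54.3 CPM with DMSO. The groups did not overlap here either, but the difference was small, with a log2 fold change of 0.16 (95% interval -0.29 to 0.60, edgeR adjusted p = 0.936).

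Lamc1 encodes the gamma 1 chain that completes most laminin trimers. It stood at 81.9, 79.2 and 78.2 CPM with compound 33, against 68.9, 91.6 and 59.2 CPM with DMSO, and the compound 33 values lay inside the DMSO range. Lama4, the alpha chain typical of mesenchymal and vascular laminins, stood at 25.7, 41.0 and 44.8 CPM with compound 33, against 49.8, 41.0 and 33.4 CPM with DMSO, a log2 fold change of -0.14 (SE 0.27). The groups overlapped for this chain as well. Lama2, the chain of muscle and nerve laminins, had a log2 fold change of 0.43 (SE 0.33) and Lama5 one of -0.09 (SE 0.39). Lama3 and Lamb3, chains of epithelial laminins, had totals of 2 and 3 reads, Lamc3 had 2 and Lama1 had 9. Summed over all chains, laminin stood at 478, 585 and 530.2 CPM with compound 33, against 409, 477 and 422 CPM with DMSO. The sums did not overlap, but the lowest with compound 33 was barely above the highest with DMSO.

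**Figure D4:**
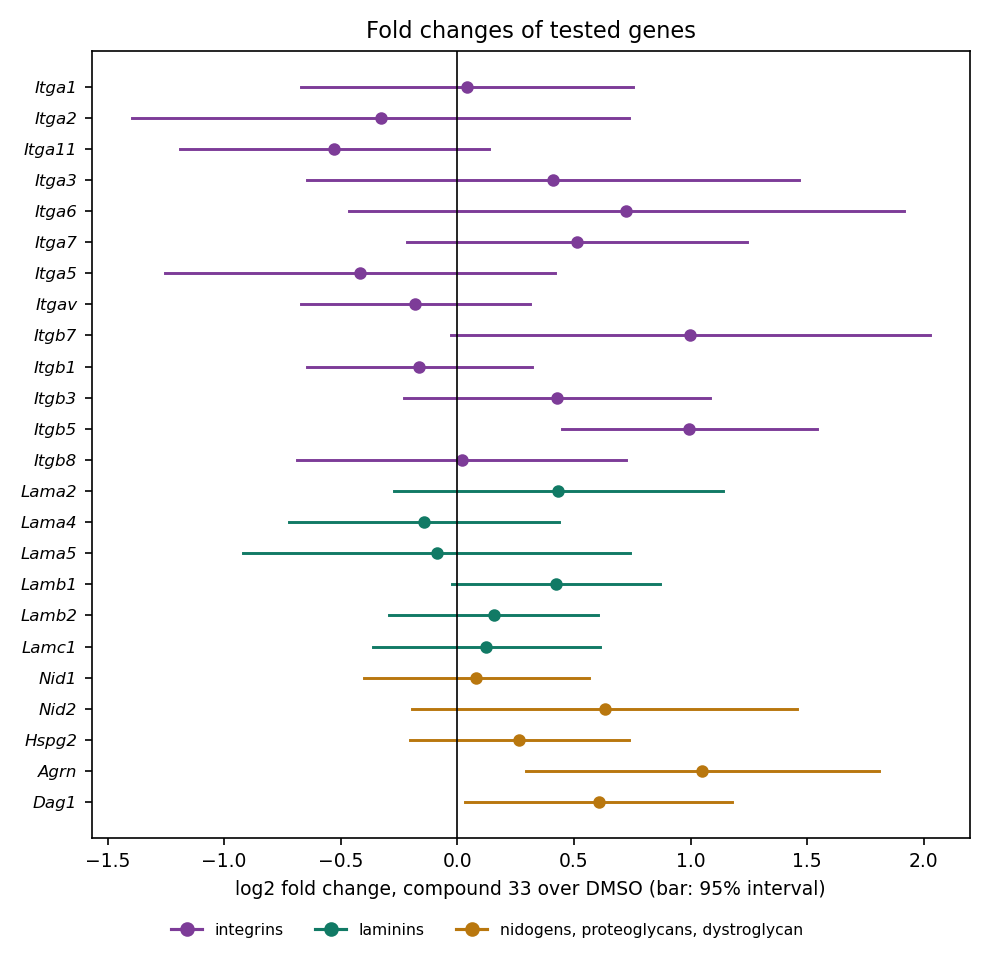
Log2 fold change of compound 33 over DMSO (horizontal axis) with its 95% interval for the tested integrin, laminin, nidogen, proteoglycan and dystroglycan genes with a value in the text, ordered by role. Intervals of Itgb5, Agrn and Dag1 lie above 0 before any adjustment over genes, and those of the other genes plotted include 0.

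Agrin, a heparan sulphate proteoglycan that binds laminin and dystroglycan, had the highest log2 fold change of the set. Agrn lies on chromosome 4 (mm10, 156165290 to 156197488, minus strand). It stood at 32.4, 17.8 and 35.0 CPM with compound 33, against 10.6, 9.92 and 19.5 CPM with DMSO. The groups overlapped, because compound 33 replicate 2 was below DMSO replicate 3. The log2 fold change was 1.05 (SE 0.35, 95% interval 0.29 to 1.81), with an unadjusted p of 0.0100 and an adjusted p of 0.575 in edgeR. It ranged from 0.87 without compound 33 replicate 3 to 1.45 without DMSO replicate 3. Perlecan, Hspg2, the other proteoglycan, stood at 106, 104 and 121 CPM with compound 33, against 94.9, 107 and 74.2 CPM with DMSO, with overlapping groups and a log2 fold change of 0.27 (SE 0.22) that lay at 0.13 when DMSO replicate 3 was left out and at 0.40 when DMSO replicate 2 was.

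Nidogens link laminin to type IV collagen. Nid1 stood at 127, 139 and 102 CPM with compound 33, against 96.5, 141 and 110.4 CPM with DMSO, and its log2 fold change of 0.08 (95% interval -0.40 to 0.56) changed sign with the library left out. Nid2 stood at 24.5, 19.9 and 8.24 CPM with compound 33, against 11.7, 11.7 and 10.4 CPM with DMSO. Its compound 33 libraries were spread on both sides of the DMSO range, and the log2 fold change was 0.63 (SE 0.38, edgeR adjusted p = 0.813), or 0.34 without compound 33 replicate 1 and 0.98 without compound 33 replicate 3. Exons of Nid1 and Nid2 overlap Gm48682 and Rtraf on the opposite strand.

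Dag1 encodes both dystroglycan chains, alpha outside the cell, which binds laminin, agrin and perlecan through its sugar chains, and beta across the membrane, which binds dystrophin or utrophin. The gene lies on chromosome 9 (mm10, 108204634 to 108263958, minus strand). It stood at 190.1, 159 and 111 CPM with compound 33, against 71.6, 129 and 101 CPM with DMSO. The groups overlapped, since compound 33 replicate 3 was below DMSO replicate 2. The log2 fold change was 0.61 (SE 0.27, 95% interval 0.03 to 1.18), with an unadjusted p of 0.0391 and an adjusted p of 0.720 in edgeR, and the unadjusted p reached 0.173 without compound 33 replicate 1. In the authors' deposited table Dag1 has an adjusted p of 0.818 and Agrn of 0.590.

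The endothelial and the pericyte and smooth muscle markers, whose summed levels were higher with compound 33, thus lay on the same side as the means of Itgb5, Agrn, Dag1 and Lamb1. The sums rest mainly on Tek, with 36 of the 63 endothelial reads, and Cspg4, with 288 of the 417 pericyte and smooth muscle reads. The other pericyte and smooth muscle markers were scarce and differed in direction. Rgs5 averaged 0.586 CPM with compound 33 and 2.64 CPM with DMSO. Abcc9 averaged 0.343 CPM and 2.36 CPM in the same order, with 16 reads in DMSO replicate 3. Myh11 averaged 0.172 CPM and 0.266 CPM. On the higher side, Des averaged 2.94 CPM with compound 33 and 0.443 CPM with DMSO, and Notch3 4.91 CPM and 4.24 CPM. The part of these cell type markers in the results was not tested.

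Partners of dystroglycan gave no gene past the test. Of 9 tested genes of the dystrophin and sarcoglycan complex 0 passed in edgeR, DESeq2 or limma-voom (0.0296%, 0.179% and 0.0198% of all genes). At an unadjusted edgeR p under 0.05 lay 0 of the 9 (6.87% of all genes), and their median log2 fold change was 0.22. Among the most abundant was Sgcb, a sarcoglycan that stood at 44.0 ± 2.66 CPM with compound 33 and 46.7 ± 3.31 CPM with DMSO (SD, n = 3 per group). Of 13 tested enzymes that build the laminin-binding sugar of alpha-dystroglycan 0 passed in any of these tools. Under an unadjusted edgeR p of 0.05 lay 0 of the 13 (6.87% of all genes), with a median log2 fold change of 0.02. In lists this short, counts of 0 are near that share. Gmppb, the most abundant of these enzymes, stood at 102 ± 14.1 CPM with compound 33 and 100.6 ± 30.0 CPM with DMSO (SD, n = 3 per group).

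Of 10 tested genes of other basement membrane proteins 0 passed in edgeR, DESeq2 or limma-voom. At an unadjusted edgeR p under 0.05 lay 1 (6.87% of all genes), the matricellular protein gene Smoc2, lower with compound 33 at a log2 fold change of -0.57 (SE 0.25). The median over the 10 was 0.09, against -0.01 over all tested genes. Col4a1, a chain of the type IV collagen that forms the other basement membrane network, stood at 199, 186 and 249 CPM with compound 33, against 237, 135 and 178 CPM with DMSO, and the groups overlapped.

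Genes of the focal adhesion, the plaque that ties integrins to actin, had mostly negative values. Negative log2 fold changes were found in 15 of the 22 tested, against 51.1% of all tested genes, and the median was -0.11, while 0 passed in edgeR, DESeq2 or limma-voom. At an unadjusted edgeR p under 0.05, 2 were lower (3.23% of all genes) and 0 higher (3.64%). Vcl, or vinculin, which binds talin and actin, stood at 133, 158 and 137 CPM with compound 33, against 217, 252 and 246 CPM with DMSO (log2 fold change -0.74, SE 0.20, edgeR adjusted p = 0.401). Ilk, the integrin-linked kinase that binds beta subunit tails, stood at 116, 91.6 and 80.3 CPM with compound 33, against 144, 162 and 121 CPM with DMSO (log2 fold change -0.57, SE 0.22, edgeR adjusted p = 0.674). Neither gene had overlapping groups, and both lay lower with compound 33 where Itgb5 lay higher. All compound 33 libraries lay below all DMSO libraries in 5 of the 22, against 6.73% of all tested genes, and above them in 0, against 6.64%.

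Ligands of integrins lay on both sides. Of 20 tested, 0 passed in edgeR, DESeq2 or limma-voom, and at an unadjusted edgeR p under 0.05, 2 were higher (3.64% of all genes) and 3 lower (3.23%). Vcam1, a cell surface ligand of alpha 4 integrins, stood at 896, 650.1 and 815 CPM with compound 33, against 564, 373 and 416 CPM with DMSO, a log2 fold change of 0.80 (SE 0.23, edgeR adjusted p = 0.486). Its receptor subunit Itga4 had 19 reads over all libraries. Mfge8, a secreted ligand of alpha v integrins and the other gene on the higher side, had a log2 fold change of 0.63 (SE 0.23). Tgfbi, a matrix protein that several integrins bind, had a log2 fold change of -1.40 (SE 0.41), and periostin, Postn, which binds alpha v integrins, one of -0.69 (SE 0.25). Tgfb3, whose latent form carries an RGD site for alpha v integrins, had one of -0.77 (SE 0.25). Fibronectin, Fn1, stood at 2421, 3041 and 2842 CPM with compound 33, against 1364, 2490 and 2659 CPM with DMSO, and the groups overlapped. Among 15 tested partners of integrins in the membrane 0 passed in these tools. At an unadjusted edgeR p under 0.05 lay 1 (6.87% of all genes). This was Plaur, the urokinase receptor, lower at a log2 fold change of -0.60 (SE 0.26).

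Members also differed in how much they spread between replicates. DMSO replicate 1 was the lowest of its group for Itgb5, Itgb1, Lamb1, Lamb2, Nid1 and Dag1 and the highest for Itgav, Itgb3, Itga5, Itga7 and Lama4. DMSO replicates 1, 2 and 3 were the lowest of their group for 40%, 20% and 40% of the 25 tested members, against 38.3%, 34.9% and 26.8% of all tested genes.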

How the data were processed

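Per the labels' protocols, RNA of 6 samples went into QuantSeq 3′ libraries, read on an Ion Proton. Per the submitters' processing notes, the tools were featureCounts 2.0.3, HISAT2 2.2.1, FastQC 0.11.9 and DESeq2, with build mm10. No source used here names the annotation, the strand setting or the rule for reads that match several genes. The authors deposited whole-number read counts per gene symbol without normalization. Their deposited comparison table holds a mean normalized signal, a fold change and standard error on the log2 scale, a Wald score, a p-value and an adjusted p-value.

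From the counts, edgeR 4.0.16 in R 4.3.3 kept genes by filterByExpr (minimum count 10), scaled libraries by TMM and tested compound 33 against DMSO with the quasi-likelihood F test (robust, group as the only term, two-sided), with Benjamini-Hochberg adjustment over all 10124 genes tested and a threshold of 0.05. This filter kept 25 of the 43 members. Of the 18 others, 4 had no read. Of the 25, 20 reached the filter level in every library, and Itgb7 reached it in all 3 compound 33 libraries and in 0 DMSO libraries. The standard error is the unshrunk log2 fold change over the square root of F. The biological coefficient of variation common to all genes was 23.6%. No pair of replicates agreed within sampling noise (chi-square per degree of freedom 4.56 to 18.9). Alternatives were other scalings, filters, DESeq2 1.42.0, limma-voom (limma 3.58.1), a replicate block and leaving out each library. The procedure was tested on simulated counts. The differences planted there were larger than any seen in the members, so the simulation does not cover differences of the size reported here. Locations, overlaps and coding sequences come from GENCODE M21, which uses the same build.

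The members and lists were chosen with earlier results of these data known. Members were named singly if they had an unadjusted p under 0.05, groups that did not overlap with at least 5 CPM in the higher group, or a mean of at least 50 CPM, or as a partner chain. Of each list, up to 4 members under an unadjusted p of 0.05 were named, otherwise the 2 most abundant, and some genes are not reported here singly. Itga11, Itga5, Itga7, Nid2, Col4a1, Fn1 and the other members named beyond this rule were chosen after their values were seen.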

Additional observations from a re-analysis of the deposited data

How the results depend on the processing

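No member and no gene of the 6 pathway lists passed under any of the 15 alternatives run. Over all genes, where 3 passed, 21 passed without a low-count filter, 18 with DESeq2 and 7 with the replicate block, and leaving out single libraries gave 1 to 7, 7 without DMSO replicate 1 and 1 without compound 33 replicate 1 or DMSO replicate 3. The median log2 fold change of the members, 0.19, was 0.28 in limma-voom, and leaving out single libraries gave 0.13 (without DMSO replicate 3) to 0.29 (DMSO replicate 1). Over all 25 tested members, 10 changed sign in at least 1 fit with a library left out, Itga1, Itga3, Itgb8, Lama4 and Lama5 among them. For the 11 named for their p, their level or groups that do not overlap, 158 of 163 values under these alternatives kept their sign and their side of the threshold. The other 5 changed sign near 0 when a library was left out. Over such fits the log2 fold change of Itgav ran from -0.32 to 0.0020 (the highest without DMSO replicate 1), that of Itgb1 from -0.31 to 0.051 (DMSO replicate 2), that of Lamc1 from -0.011 (DMSO replicate 3) to 0.33, and that of Nid1 from -0.030 (DMSO replicate 1, with -0.01 without compound 33 replicate 2) to 0.25. The cause was not tested. Same-numbered replicates did not deviate together in every pair (r across genes of -0.03, 0.21 and 0.08), nor did every sample correlate best with its own number. No source used here states a pairing, and with 3 libraries per group these correlations cannot show whether same-numbered replicates were paired. With the replicate block the members' median was 0.28, and Itgb5 had an adjusted p of 0.200. Arms of 3 libraries with as few as 1594052 reads limit the precision, and 18 members had too few reads to be tested.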
